A study of Mus musculus with 12 samples.

Results

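The guanylate-binding proteins (GBPs) are large interferon-inducible GTPases, and 8 of their genes, Gbp2 to Gbp9, were taken by symbol from the gene table of the 20778 genes measured in splenic CD8 T cells. Of the 8, Gbp2, Gbp3, Gbp4, Gbp7, Gbp8 and Gbp9 were measured and were all among the 12122 genes that passed the filter on low counts. Gbp5 and Gbp6 were not analysed here. IFNγ raised all 6 measured genes 6.25- to 17-fold over Naïve cells, LPS raised all 6 by 3.7- to 9.63-fold, and an antibody against CD3 raised 4 of them by 1.79- to 2.5-fold. The calls of Gbp4 with IFNγ and LPS, and those of Gbp2 and Gbp7 with anti-CD3, depended on single libraries. Gbp8 was not called with anti-CD3, where it had a mean of 7.25 CPM (counts on a library-size scale) against 9.09 in Naïve cells.

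GBPs bind guanine nucleotides, assemble into coats on the membranes of intracellular bacteria and of parasite vacuoles, and help to expose these to autophagy proteins, to immunity-related GTPases and to inflammasomes. Interferons reach their genes through the JAK kinases. IFNγ acts through the gamma-activated site (GAS), and type I interferons and the IRF factors act on the interferon-stimulated response element (ISRE). GBPs are best known from macrophages and infected epithelial cells, and lymphocytes also respond to IFNγ with their expression.

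All 4 groups were CD8 T cells taken from the spleens of C57BL/6 mice with anti-CD8 magnetic beads and held in culture for 6 hours, with 3 mRNA libraries per group. Naïve cells received nothing, the anti-CD3 group received the antibody at 1 µg/ml, which engages the T cell receptor complex, the IFNγ group received 70 ng/ml of the cytokine, and the LPS group received bacterial lipopolysaccharide, the ligand of Toll-like receptor 4, at 1 µg/ml. A second label field gives the antibody and LPS doses in mg/ml, so their unit is uncertain, and the mice are 6 weeks old by the labels but older in the methods of the study. The number of mice behind each library, and any pooling of them, is not given in the sources used here, so p-values measure the spread between these libraries only. Library totals ran from 10196248 to 27610175 counts. Replicate 1 stood apart in all 4 groups, with a chi-square per gene of 20.8 to 55.8 against the other libraries of its group, which differed from each other by 4.66 to 5.8. The T cell markers (6 of 6) and CD8 markers (2 of 2) were detected in every group. The T cell sums were 987 to 1122 CPM in Naïve and 1195 to 1330 in anti-CD3 libraries. They were 1032 to 1171 in IFNγ and 763 to 884 in LPS libraries. The CD8 sums were 533 to 581 CPM in Naïve and 638 to 917 in anti-CD3 libraries. They were 550 to 641 in IFNγ and 480 to 618 in LPS libraries. All 8 B cell markers were detected as well. Their sums were 3017 to 3295 CPM in Naïve and 2206 to 2429 in anti-CD3 libraries, and 2704 to 2773 in IFNγ and 1840 to 2390 in LPS libraries. They were higher than the CD8 sums, but they add 8 genes against 2, so the gap is not one per gene. All 10 macrophage and monocyte markers were also detected, with sums of 376 to 720 CPM in Naïve, 247 to 379 in anti-CD3, 281 to 572 in IFNγ and 199 to 387 in LPS libraries. The B cell list and the macrophage and monocyte list had their highest library in the Naïve group. The sums of the 5 NK cell markers, also all detected, were lower in every Naïve than in every anti-CD3 and IFNγ library, at 73.7 to 85.8 CPM in Naïve, 144 to 182 in anti-CD3, 95 to 166 in IFNγ and 70 to 121 in LPS libraries. The part of these cells in the Gbp values was not tested. In such bulk samples fewer cells of a type and less RNA per cell cannot be told apart.

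The measured genes lie in both mouse GBP clusters (GRCm38, GENCODE M21). Gbp7 (chromosome 3, 142530342 to 142550149), Gbp3 (142560026 to 142573209) and Gbp2 (142620602 to 142638008) follow each other on the plus strand of chromosome 3. Gbp8 (chromosome 5, 105014150 to 105139540), Gbp9 (105077630 to 105139539) and Gbp4 (105115767 to 105139586) share the minus strand of chromosome 5, and their annotated loci overlap each other. The promoters of the measured chromosome 3 members are shown because, among the measured members, a RefSeq entry was at hand for these alone. The entry for Gbp5, which was not analysed, is not shown. The windows run from 250 bases before to 50 after the RefSeq start (GRCm38.p6, plus strand). Capitals mark matches to the ISRE core GAAANNGAAA (on either strand) and to the palindromic GAS motif TTCNNNGAA, which in these promoters do not overlap each other.
Gbp2, chr3:142620413-142620712: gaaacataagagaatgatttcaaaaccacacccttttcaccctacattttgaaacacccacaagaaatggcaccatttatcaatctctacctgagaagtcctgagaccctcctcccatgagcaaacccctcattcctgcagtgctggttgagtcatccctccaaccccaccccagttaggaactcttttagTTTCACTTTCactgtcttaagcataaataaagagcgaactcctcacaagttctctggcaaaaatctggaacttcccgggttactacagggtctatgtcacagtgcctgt
Gbp3, chr3:142559794-142560093: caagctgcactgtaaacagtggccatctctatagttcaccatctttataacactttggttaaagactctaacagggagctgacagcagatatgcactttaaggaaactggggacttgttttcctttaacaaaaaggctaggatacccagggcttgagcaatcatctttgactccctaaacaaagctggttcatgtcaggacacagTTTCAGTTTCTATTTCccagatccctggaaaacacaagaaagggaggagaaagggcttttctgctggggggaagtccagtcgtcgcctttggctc
Gbp7, chr3:142530086-142530385: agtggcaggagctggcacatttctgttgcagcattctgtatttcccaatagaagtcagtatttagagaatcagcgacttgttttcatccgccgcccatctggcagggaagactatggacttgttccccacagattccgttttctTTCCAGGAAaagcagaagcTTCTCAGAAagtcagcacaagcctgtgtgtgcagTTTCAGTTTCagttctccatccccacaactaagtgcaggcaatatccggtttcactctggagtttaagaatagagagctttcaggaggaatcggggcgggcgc
The ISRE core begins 59 bases upstream of the start in Gbp2 and 53 bases upstream in Gbp7. Gbp3 has a pair of overlapping ISRE cores, at 45 and 39 bases upstream, while the window of its second RefSeq start holds none. Gbp7 also has GAS matches at 106 and 87 bases upstream. Of 32851 RefSeq promoters of the same length, 3.44% hold the ISRE core, 8.3% hold the GAS motif and 0.454% hold both. These shares are given for scale only, since the 3 promoters were shown with their matches known, and the matches describe letters in the window and no link to the response. The RefSeq promoter table had no entry for Gbp4, Gbp8 or Gbp9.

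Gbp2, a prenylated GBP that is recruited to bacterial and Toxoplasma vacuole membranes, was the most abundant member. Its expression was 208, 244 and 265 CPM in the Naïve libraries, 382, 818 and 594 with anti-CD3, 3861, 4183 and 4148 with IFNγ and 697, 2100 and 1837 with LPS (replicates 1, 2 and 3 throughout). The IFNγ libraries were far above all others, and only the anti-CD3 and LPS libraries overlapped. The log2 fold change over Naïve was 4.09 ± 0.40 (SE) with IFNγ (adjusted p = 0.000322, edgeR quasi-likelihood test), 2.69 ± 0.38 with LPS (adjusted p = 0.000261) and 1.32 ± 0.36 with anti-CD3 (adjusted p = 0.0162). The anti-CD3 rise lost its call without Naïve replicate 1 (1.23, adjusted p = 0.0566) and without anti-CD3 replicate 2 (1.03, adjusted p = 0.0709).

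Gbp3 is another GBP that gathers at the Toxoplasma vacuole. It was at 71, 61.3 and 70.1 CPM in Naïve cells, 92.5, 148 and 123 with anti-CD3, 431, 417 and 418 with IFNγ and 166, 311 and 272 with LPS. The 4 groups were fully separated, in the order Naïve, anti-CD3, LPS and IFNγ. Gbp3 rose by 2.64 ± 0.23 on the log2 scale with IFNγ (adjusted p = 0.000274), by 1.89 ± 0.22 with LPS (adjusted p = 6.67e-05) and by 0.84 ± 0.22 with anti-CD3 (adjusted p = 0.0113).

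Gbp7 has been linked to the assembly of the phagocyte NADPH oxidase on phagosomes. Its values were 74.4, 83.6 and 98.4 CPM in Naïve cells, 98.2, 240 and 183 with anti-CD3, 803, 890 and 838 with IFNγ and 303, 580 and 542 with LPS. The IFNγ and LPS libraries were separate from the rest, whereas the lowest anti-CD3 library was level with the highest Naïve library. The log2 fold change over Naïve was 3.30 ± 0.33 with IFNγ (adjusted p = 0.000322), 2.47 ± 0.32 with LPS (adjusted p = 0.000138) and 1.02 ± 0.31 with anti-CD3 (adjusted p = 0.0238). The anti-CD3 call of Gbp7 was lost when Naïve replicate 1 or 2 or anti-CD3 replicate 2 or 3 was left out, with adjusted p = 0.0643 to 0.106.

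Gbp9 was the most abundant of the chromosome 5 members. It was at 48.5, 49.3 and 50.2 CPM in Naïve cells, 69.3, 172 and 124 with anti-CD3, 283, 432 and 421 with IFNγ and 199, 312 and 280 with LPS. The Naïve libraries were close to each other and below all others, and the IFNγ and LPS libraries overlapped. Gbp9 rose by 2.94 ± 0.31 on the log2 scale with IFNγ (adjusted p = 0.000434), by 2.42 ± 0.31 with LPS (adjusted p = 0.000124) and by 1.30 ± 0.30 with anti-CD3 (adjusted p = 0.00652).

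Gbp8, a low-abundance member, passed the test under IFNγ and LPS but not under anti-CD3. Its values were 9.21, 10.8 and 7.26 CPM in Naïve cells, 6.95, 5.71 and 9.1 with anti-CD3, 58.5, 74.7 and 58.8 with IFNγ and 19.4, 38.1 and 47.2 with LPS. The Naïve and anti-CD3 libraries overlapped, and both lay below all LPS and IFNγ libraries. The log2 fold change over Naïve was 2.82 ± 0.30 with IFNγ (adjusted p = 0.000434) and 1.95 ± 0.30 with LPS (adjusted p = 0.000414). With anti-CD3 it was -0.32 ± 0.31 (adjusted p = 0.437), with an interval of 2 SE on each side from -0.95 to 0.30.

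Gbp4 varied widely between the libraries of a group and was listed at 0 in Naïve replicate 3. It was at 5.8, 10.5 and 0 CPM in Naïve cells, 6.95, 57.3 and 21.3 with anti-CD3, 34.3, 98.2 and 107 with IFNγ and 52.6, 35 and 64.7 with LPS. The Naïve libraries lay below all IFNγ and LPS libraries but overlapped with anti-CD3, and the treated groups overlapped each other. The log2 fold change over Naïve was 3.92 ± 0.98 with IFNγ (adjusted p = 0.0266), 3.27 ± 0.97 with LPS (adjusted p = 0.0177) and 2.40 ± 0.97 with anti-CD3, which did not pass the test (adjusted p = 0.0723). The IFNγ call was lost in 6 of 19 alternatives, namely without a count filter, with limma-voom (59.1-fold, adjusted p = 0.0768, in place of 15.1-fold), and without Naïve replicate 1, Naïve replicate 3, IFNγ replicate 2 or IFNγ replicate 3. Without Naïve replicate 3, the library at 0, the log2 fold change of Gbp4 was 3.32 with IFNγ (adjusted p = 0.0546) and 2.67 with LPS (adjusted p = 0.0326), and without Naïve replicate 2 it was 4.70 with IFNγ (adjusted p = 0.0476) and 4.05 with LPS (adjusted p = 0.0209). With LPS, limma-voom gave 41.2-fold in place of 9.63-fold (adjusted p = 0.0403), and with anti-CD3 13.9-fold in place of 5.3-fold (adjusted p = 0.15). The LPS call was lost without Naïve replicate 1 (3.36, adjusted p = 0.0509), and the anti-CD3 difference passed without anti-CD3 replicate 1 (2.90, adjusted p = 0.027) and fell short further without anti-CD3 replicate 2 (1.37, adjusted p = 0.323) or Naïve replicate 3 (1.81, adjusted p = 0.134). Gbp4 moved to 3.19 with anti-CD3 without Naïve replicate 2 (adjusted p = 0.0626).

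**Figure D1:**
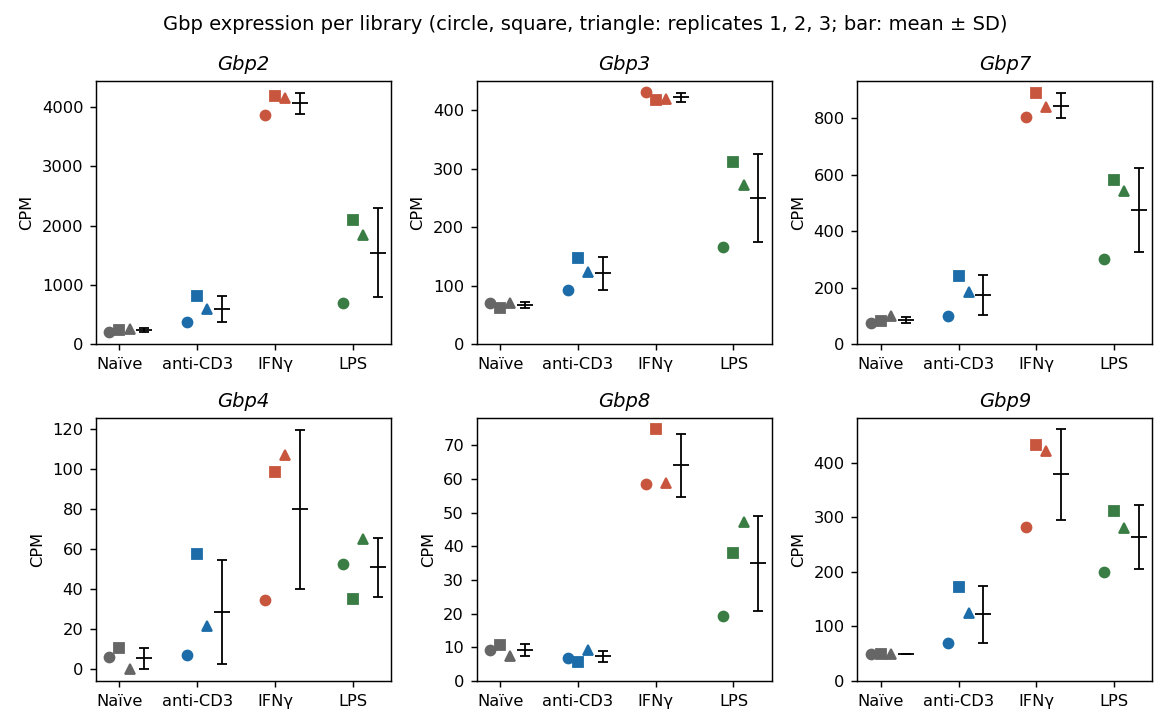
CPM (y axis, linear, a separate scale for each gene) of the 6 measured GBP genes in the 12 libraries, by group. Circles, squares and triangles are replicates 1, 2 and 3, and the black bars give mean ± SD (n = 3). IFNγ had the highest mean for every gene, and Gbp8 is the one gene whose anti-CD3 mean was below its Naïve mean.

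Of the 6 measured members, 6 were called higher with IFNγ than in Naïve cells, where 8.17% of all tested genes were called higher. LPS raised 6 of 6 against a background of 26.9%, and anti-CD3 raised 4 of 6 against 22.9%. The median log2 fold change of the members over Naïve was 3.12 with IFNγ, 2.45 with LPS and 1.16 with anti-CD3, beside medians over all tested genes of -0.02, -0.01 and -0.02. The 3 comparisons share the Naïve libraries. A difference among the 4 groups was called for 6 of 6 members, as it was for 59.9% of all genes. The count for anti-CD3 depended on single libraries, since 2 members were called without Naïve replicate 1 or without anti-CD3 replicate 2. The share of all genes called in those fits is not given here.

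The treated groups were then compared with each other, to see which stimulus gave the higher GBP expression. IFNγ exceeded anti-CD3 for 5 of 6 members (15.8% of all genes were higher), with Gbp8 showing the widest difference at 3.14 ± 0.31 on the log2 scale (adjusted p = 3.31e-05) and Gbp4 missing the threshold at 1.51 ± 0.86 (adjusted p = 0.196). Without anti-CD3 replicate 2 this Gbp4 difference was 2.55 (adjusted p = 0.0719). Gbp2 was higher by 2.77 ± 0.38 (adjusted p = 0.00029), Gbp7 by 2.28 ± 0.32 (adjusted p = 0.000292), Gbp3 by 1.80 ± 0.22 (adjusted p = 0.000125) and Gbp9 by 1.64 ± 0.30 (adjusted p = 0.00157). IFNγ and LPS were closer neighbours. IFNγ exceeded LPS for 4 of 6 members against a background of 18.0%, by 1.40 ± 0.36 for Gbp2 (adjusted p = 0.011), 0.75 ± 0.21 for Gbp3 (adjusted p = 0.0159), 0.87 ± 0.28 for Gbp8 (adjusted p = 0.0286) and 0.83 ± 0.30 for Gbp7, whose adjusted p rounds to 0.05. The difference in Gbp9 was 0.52 ± 0.29, with an interval of 2 SE on each side from -0.06 to 1.10 (adjusted p = 0.177), and that in Gbp4 was 0.65 ± 0.84, with an interval from -1.02 to 2.32 (adjusted p = 0.565). The IFNγ to LPS call of Gbp7 was lost in 12 of 19 alternatives, 10 of which leave out 1 library, and that of Gbp8 was lost in 4 of 19. Without IFNγ replicate 2, IFNγ replicate 3 or LPS replicate 2, 2 members were called. The share of all genes called in those fits is not given here.

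Anti-CD3 was below LPS for 5 of 6 members, where 9.76% of all genes were lower. Gbp8 differed most, by -2.28 ± 0.30 on the log2 scale (adjusted p = 0.000662), and its call held in all 19 alternatives. Gbp7 was lower by -1.46 ± 0.31 (adjusted p = 0.00849), Gbp2 by -1.37 ± 0.36 (adjusted p = 0.0249), Gbp9 by -1.12 ± 0.29 (adjusted p = 0.0238) and Gbp3 by -1.05 ± 0.21 (adjusted p = 0.00699). The difference in Gbp4 did not pass (-0.86 ± 0.86, adjusted p = 0.527), and it was -1.90 without anti-CD3 replicate 2 (adjusted p = 0.199) and -1.57 with limma-voom (adjusted p = 0.215). A fit of these groups alone called 1 member, Gbp8, and 3 were called without anti-CD3 replicate 3, LPS replicate 2 or LPS replicate 3. The share of all genes called in those smaller fits is not given here, so no loss particular to the members is read from these counts. For Gbp2, whose anti-CD3 and LPS libraries overlapped, the call was lost in 6 of 19 alternatives.

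**Figure D2:**
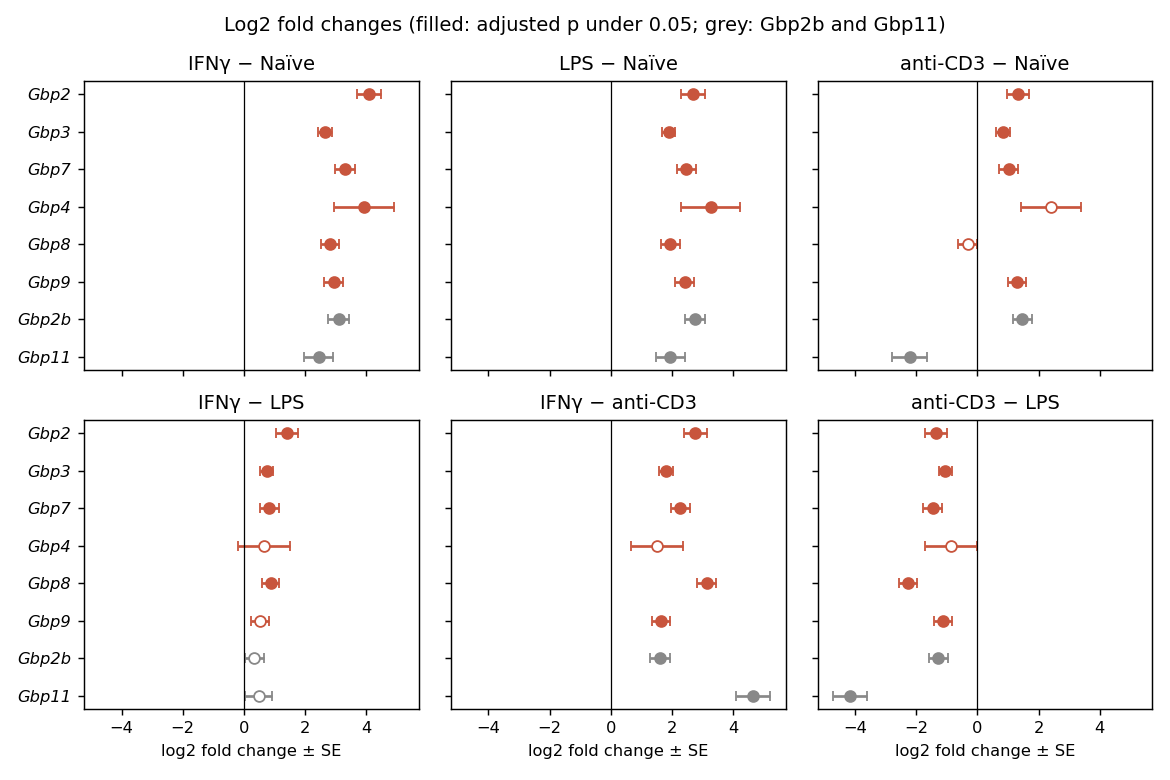
Log2 fold changes (x axis, ± SE) of the 6 measured members (red) and of the related genes Gbp2b and Gbp11 (grey) in the 6 comparisons of groups. Filled points have an adjusted p under 0.05, and in anti-CD3 against Naïve cells Gbp8 (-0.32) and Gbp11 (-2.22) are the points left of 0.

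To compare levels between genes, CPM were divided by the length of the longest annotated transcript. On this scale Gbp2 was highest in every group, at 95.1 ± 11.5 CPM per kb (SD, n = 3) in Naïve cells, 238 ± 86.7 with anti-CD3, 1615 ± 70.2 with IFNγ and 614 ± 296 with LPS. Gbp3 came next, with 25.2 ± 1.99 CPM per kb in Naïve cells and 157 ± 2.88 with IFNγ, and was within the spread of Gbp7 in the IFNγ group (150 ± 7.76). Gbp9 followed with 9.79 ± 0.171 CPM per kb in Naïve cells and 75.1 ± 16.4 with IFNγ. Gbp8 and Gbp4 were lowest and did not differ beyond their spread with IFNγ, at 18.9 ± 2.75 and 17.6 ± 8.74 CPM per kb, and their order there turned with the mean transcript length in place of the longest. The first 4 places, Gbp2, Gbp3, Gbp7 and Gbp9, kept this order in all 4 groups with either length.

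Gbp2 also took a larger share of the family with IFNγ. Of the summed CPM per kb of the 6 members, Gbp2 made up 63.6 ± 2.47% in Naïve cells (SD, n = 3), 68.6 ± 0.437% with anti-CD3, 79.4 ± 0.511% with IFNγ and 69.1 ± 6.54% with LPS. Within each library the log2 ratio of Gbp3 to Gbp2, in CPM, was -1.55, -1.99 and -1.92 in Naïve cells and -3.16, -3.33 and -3.31 with IFNγ. The groups did not overlap, and their means differed by -1.45. The ratio was also below Naïve, without overlap, by a mean of -0.70 with LPS and -0.44 with anti-CD3. These are the members with the lowest and highest fold change with IFNγ, so the ratio describes the same difference, with no test used. The 6 genes together took 0.0453% to 0.0531% of all counts in Naïve libraries, 0.0674% to 0.142% with anti-CD3, 0.138% to 0.311% with LPS and 0.554% to 0.589% with IFNγ.

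**Figure D3:**
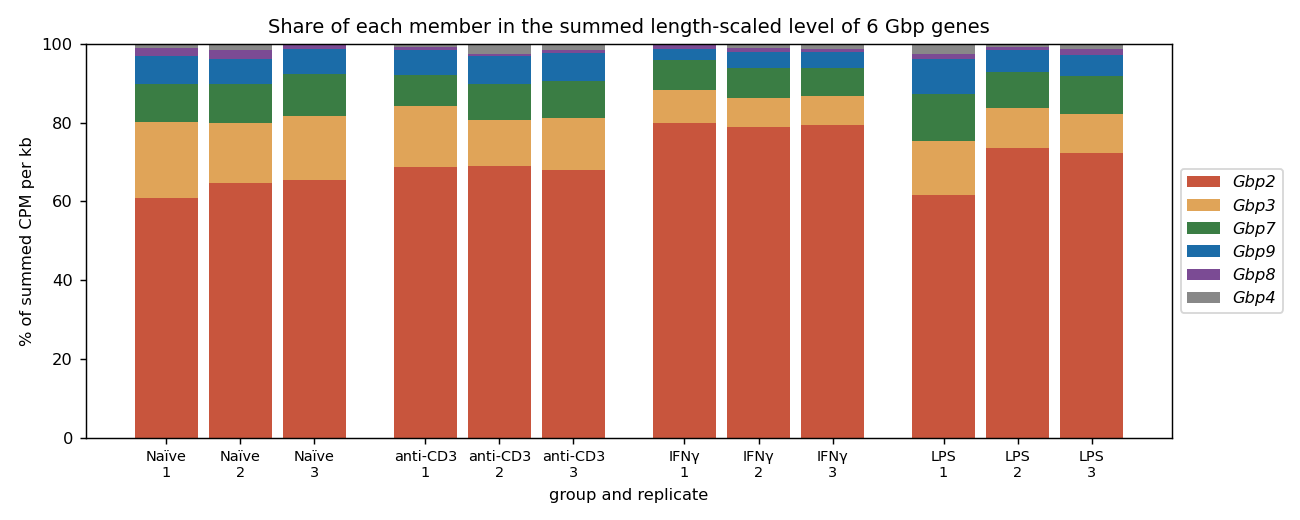
Share of each measured member in the summed CPM per kb of the 6 genes (y axis, percent), with 1 stacked bar per library. Gbp2 fills the largest part of each bar, and its share in the 3 IFNγ libraries is above that in all other libraries.

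The values of the chromosome 5 members rest on transcripts that resemble each other. Of all 31-base words in the annotated transcripts of a gene, the share found in no other gene was 95.1% for Gbp2, 94.4% for Gbp3, 85.3% for Gbp7, 85.1% for Gbp4, 81.7% for Gbp9 and 68.9% for Gbp8. Gbp8 shared 529 words with Gbp11 (15.5% of its words) and 468 with Gbp9 (13.7%), so estimated counts could be divided between these genes. It also shared 452 words with Gbp6 (13.2%) and 443 with Gbp10 (13%), which were not analysed here. How reads of Gbp6 and Gbp10 were assigned was not tested. Gbp11, a related chromosome 5 locus annotated as a polymorphic pseudogene, had fold changes of the same sign as Gbp8 under each stimulus. It was at 10.5 ± 5.07 CPM (SD, n = 3) in Naïve cells, 2.28 ± 0.828 with anti-CD3, 56.9 ± 19.9 with IFNγ and 40.4 ± 19.8 with LPS. Gbp11 fell by 2.22 ± 0.57 on the log2 scale with anti-CD3 (adjusted p = 0.0111), and 1 of 19 alternatives, limma-voom, ended the call (adjusted p = 0.0798). Gbp2b, the chromosome 3 neighbour of Gbp2, instead rose with anti-CD3 by 1.47 ± 0.32 (adjusted p = 0.00496).

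Gbp8 and Gbp9 can be set against each other within each library, a pair picked for the difference seen above, so their ratio is given as a description. The log2 ratio of Gbp8 to Gbp9 was -2.40, -2.19 and -2.79 in Naïve cells and -3.32, -4.92 and -3.77 with anti-CD3. The groups did not overlap and their means differed by -1.54. With IFNγ the ratio was -2.28, -2.53 and -2.84, a difference from Naïve cells of -0.09. With LPS it was -3.36, -3.04 and -2.57, a difference of -0.53 in the same direction as with anti-CD3, and these libraries overlapped with Naïve cells. When the counts of Gbp4, Gbp8 and Gbp9 were summed into 1 feature, the sum rose by 1.30 ± 0.33 on the log2 scale with anti-CD3 (adjusted p = 0.0107). Gbp9 made up most of this sum, with a mean of 122 CPM against 28.5 for Gbp4 and 7.25 for Gbp8, so its value follows Gbp9 and says nothing of how reads of Gbp8 were assigned. That sum also rose with IFNγ (3.03 ± 0.35, adjusted p = 0.000592) and LPS (2.45 ± 0.34, adjusted p = 0.000224).

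**Figure D4:**
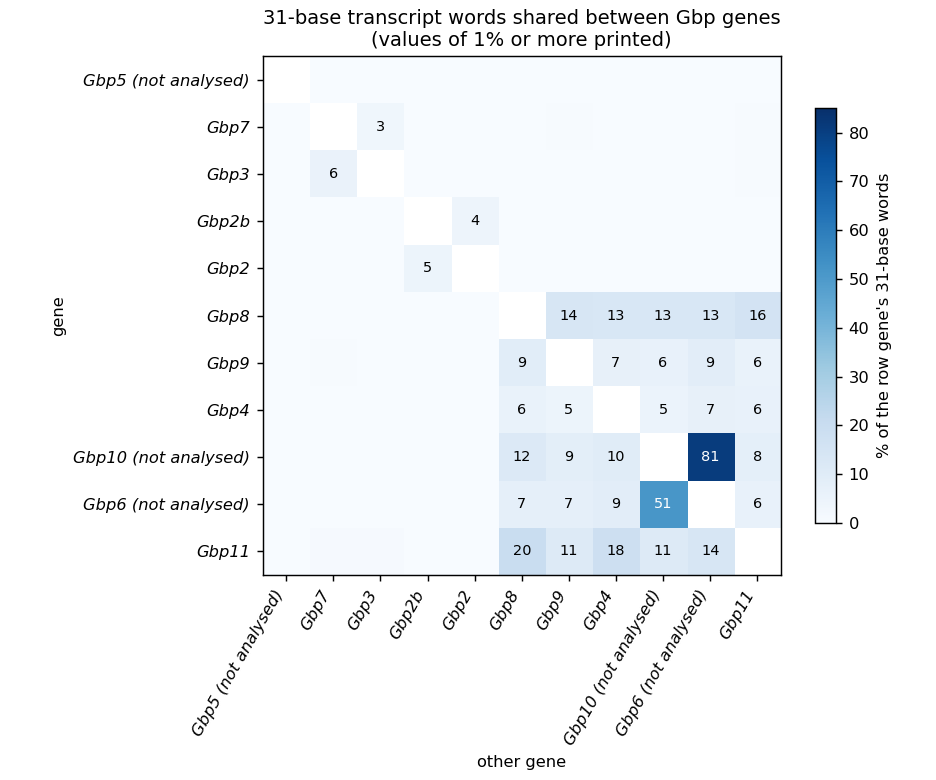
Share of the 31-base transcript words of each gene (rows, percent) that also occur in another Gbp gene (columns), from GENCODE M21. The chromosome 3 genes share few words, and the chromosome 5 genes share more, with 15.5% of the Gbp8 words in Gbp11 and 13.7% in Gbp9.

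Most Gbp genes were lower in replicate 1 of the treated groups than in the other libraries. In anti-CD3 replicate 1 all 6 members were below the mean of the other 2 libraries, with a median difference of -0.99 on the log2 scale, and in LPS replicate 1 it was 5 of 6 members with a median of -0.85. In IFNγ replicate 1 it was also 5 of 6 members, with a median of -0.15 and a lowest value of -1.57 for Gbp4. In Naïve replicate 1 it was 3 of 6 with a median of -0.00. The same count over all genes was not made, so nothing particular to the GBPs is read from these counts. With all 4 replicate 1 libraries left out, the members called were 5 of 6 with IFNγ, 4 with anti-CD3 and 5 with LPS over Naïve, and their median log2 fold changes were 3.16, 1.35 and 2.59. Over all genes that fit called 1433 higher with IFNγ, 3251 with anti-CD3 and 3548 with LPS, against 990, 2775 and 3265 with all libraries. The lost calls were those of Gbp4 with IFNγ (4.42 ± 1.13, adjusted p = 0.0528) and LPS (3.40 ± 1.16, adjusted p = 0.0616). Between IFNγ and LPS, Gbp8 then lost its call (0.63 ± 0.23, adjusted p = 0.0597) and Gbp9 gained one (0.51 ± 0.14, adjusted p = 0.0199). The transcript of IFNγ itself (Ifng) was lowest in replicate 1 of all 4 groups, Naïve cells included. Ifng was at 4.34, 40.6 and 31.2 CPM with anti-CD3 and at 8.69, 300 and 260 CPM with LPS, against 1.8, 2.35 and 3.69 in Naïve cells and 1.94, 3.98 and 5.07 with IFNγ. Ifng rose by 6.19 ± 1.25 on the log2 scale with LPS (adjusted p = 0.00234), while its difference with anti-CD3 was 3.25 ± 1.21 (adjusted p = 0.055). The macrophage and monocyte marker sums were lowest in replicate 1 of every group, at 247 CPM with anti-CD3 and 199 with LPS. The erythroid marker sums were also lowest in replicate 1 of every group (with LPS 140, 816 and 552 CPM), and those of the NK cell markers in replicate 1 of the 3 treated groups (with LPS 70, 112 and 121 CPM). The CD8 marker sums were lowest there in every group too. The T cell marker sums were instead highest in replicate 1 of every group, at 1122 CPM in Naïve, 1330 in anti-CD3, 1171 in IFNγ and 884 in LPS. The B cell sums were highest in replicate 1 with anti-CD3 (2429 CPM) and LPS (2390), and not in Naïve or IFNγ. The part of the Ifng level and of these markers in the Gbp values was not tested. Ifnb1, which encodes interferon beta, had at most 3 counts in any library, and was not detectable at this depth in Naïve cells.

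Across the 12 libraries the chromosome 3 members followed each other most closely, with Pearson correlations of log2 CPM of up to 0.993 for Gbp2 and Gbp3. Correlations with other members ran from 0.795 to 0.982 for Gbp9, from 0.604 to 0.900 for Gbp8 and from 0.604 to 0.795 for Gbp4. These points share 4 groups and 12 libraries, and the values are descriptions. The non-members whose pattern was most like the mean of the standardised members were Tmem140 (r = 0.982), Dtx3l (r = 0.981), Trim21 (r = 0.979), the class I MHC heavy chain gene H2-K1 (r = 0.979) and Plscr3 (r = 0.978), over 12 libraries. Trim21 encodes a cytosolic antibody receptor and Dtx3l a ubiquitin ligase. The absolute rise differed widely among them, as H2-K1 went from 2201 ± 12.6 CPM (SD, n = 3) in Naïve cells to 3190 ± 238 with IFNγ and Tmem140 from 20.7 ± 1.82 to 117 ± 14.7.

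Genes known to work with GBPs were then counted. Among all tested genes 8.17% were called higher and 4.27% lower with IFNγ, 26.9% and 22.3% with LPS, and 22.9% and 15.7% with anti-CD3. The immunity-related GTPases, the other interferon-inducible GTPases of vacuole membranes, were called higher in 10 of 10 tested with IFNγ, 10 of 10 with LPS and 8 of 10 with anti-CD3, with median log2 fold changes over Naïve of 2.72, 1.85 and 1.06. With anti-CD3 the count was 9 by DESeq2 and 3 by limma-voom. Of 19 genes of interferon signalling, 9 were called higher and 1 lower with IFNγ, 10 and 2 with LPS, and 5 and 4 with anti-CD3, and their medians were 0.91, 0.90 and 0.29. The anti-CD3 counts lie near these shares. Batf2, an interferon-induced transcription factor of this list, rose from 0.198 ± 0.172 CPM in Naïve cells to 17.2 ± 1.96 with IFNγ (log2 fold change 6.25 ± 0.80, adjusted p = 0.000999). Of the 14 genes for interferons and related cytokines only 4 passed the filter, of which 1 was called higher with IFNγ, 3 with LPS and 0 with anti-CD3 by edgeR. With anti-CD3, 2 had an unadjusted p under 0.05, and DESeq2 called 2 and limma-voom 0. The single one with IFNγ was Il27, a cytokine subunit gene, at 0.638 ± 0.363 CPM in Naïve cells and 5.47 ± 1.26 with IFNγ (log2 fold change 3.15 ± 0.62, adjusted p = 0.00797).

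The counts in 3 partner pathways are read against the same shares of all genes. Of 11 genes of the autophagy conjugation system, which guides GBPs and immunity-related GTPases to vacuoles, 0 were called with IFNγ, 2 higher and 4 lower with LPS, and 1 higher and 5 lower with anti-CD3. With IFNγ, 2 of them had an unadjusted p under 0.05 in edgeR, 1 in each direction, and DESeq2 and limma-voom also called 0. Of 9 inflammasome genes, 3 were higher and 0 lower with IFNγ, 3 and 3 with LPS, and 0 and 1 with anti-CD3. With anti-CD3, 1 was higher at an unadjusted p under 0.05, and DESeq2 called 1 higher and limma-voom 0. Casp4, which encodes the LPS-sensing mouse caspase-11, rose by 1.42 ± 0.29 on the log2 scale with IFNγ (adjusted p = 0.00951) and by 1.40 ± 0.29 with LPS (adjusted p = 0.00247). The interleukin gene Il1b was not called with IFNγ (-0.32 ± 0.45, adjusted p = 0.717) and rose by 2.80 ± 0.47 with LPS (adjusted p = 0.000781). Of 5 enzymes of the prenylation pathway, which gives Gbp2 the lipid that anchors it to membranes, 1 was higher with IFNγ, 1 with LPS and 2 with anti-CD3. None of the 5 was called lower by edgeR, 1 was lower with anti-CD3 at an unadjusted p under 0.05, and DESeq2 called 1 lower and limma-voom 0. In lists this short several of these counts lie near the share over all genes, among them the inflammasome genes with LPS, and nothing particular to a pathway is read from them.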

How the data were processed

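The authors pseudo-aligned mRNA reads with Kallisto to mm10 and deposited an estimated count for each gene symbol in each of the 12 libraries, without pooling or scaling. The Kallisto version and annotation are not given in the sources used here. Kallisto splits a read between all transcripts that it fits, which bears on similar genes such as the chromosome 5 GBPs. Per the methods of the study, TMM normalisation and DESeq2 were then used.

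Here the estimated counts were rounded to whole numbers and tested with edgeR 4.0.16 under R 4.3.3 by its quasi-likelihood F-test (TMM factors, filterByExpr, robust fit, group as the only term). All 12 libraries and 12122 genes entered 1 fit, with the 6 pairs of groups as contrasts and Benjamini-Hochberg adjustment over all tested genes. Genes with an adjusted p under 0.05 are referred to as called, and SE is that of the log2 fold change. CPM use TMM-scaled library sizes, and correlations use log2 CPM with a prior count of 2. Ratios within libraries are given as descriptions, and their exact permutation tests, run on pairs picked after their values were known, are not used. The script was tested on simulated data.

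Of 8 member symbols, 6 matched a row, and Gbp5 and Gbp6 were not analysed here. Of all symbols, 20612 matched GENCODE M21 (GRCm38), used for positions, transcript lengths and 31-base words. Each of the 6 measured members was described. From each gene list, only the genes with the largest and smallest log2 fold change of IFNγ over Naïve could be named, and of these some are not reported. Ifng falls under this rule, and Ifnb1 was named after its values were seen. The genes most like the family were the 5 non-members with the highest correlation. The members and the gene and marker lists were chosen with earlier results of these data known.

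Libraries with the same replicate number deviated together, with correlations of their deviations from the group means of 0.117 to 0.401 for 18 of 18 pairs, against -0.354 to 0.102 for pairs of different numbers. The pairing comes from this check, since the labels do not say what a number shares. Alternatives were the replicate block, library size alone, DESeq2 size factors, DESeq2 1.42.0, limma-voom (limma 3.58.1), no count filter, only the groups compared, each library left out in turn, and the mean transcript length. The sum of Gbp4, Gbp8 and Gbp9 and the fit without all 4 replicate 1 libraries were added after seeing the data.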

Additional observations from a re-analysis of the deposited data

How the results depend on the processing

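The 36 log2 fold changes of the 6 members were recomputed under 19 alternatives, which gave 684 values. Of these 642 kept their direction and side of the threshold, 41 lost the call, 1 gained it and 0 reversed, and 25 of the 36 stayed on their side throughout. Leaving out a library of a group outside the comparison hardly moves the fold change. Those values had little room to reverse, so the count of 0 overstates what was tried. The replicate block changed 0 member calls, with 6, 4, 6, 5, 4 and 5 members called in the 6 comparisons, whereas genes called over the whole table rose from 1508 to 3020 for IFNγ against Naïve. With 1 library left out, the members called ranged from 2 to 5 for anti-CD3 against Naïve, from 2 to 4 between IFNγ and LPS, and from 3 to 5 between anti-CD3 and LPS. A fit of the anti-CD3 and LPS groups alone called 1 member. The shares of all genes called in these smaller fits are not given here, so no loss particular to the members is read from them. The sum of Gbp4, Gbp8 and Gbp9, which is mostly Gbp9, changed by 1.30 with anti-CD3 where Gbp8 alone changed by -0.32, and is no second value of Gbp8. Leaving out all 4 replicate 1 libraries changed 4 member calls. Scaling by library size alone moved the median log2 fold change of all genes over Naïve to -0.16 with IFNγ, -0.13 with anti-CD3 and -0.22 with LPS, and no member changed direction. Gbp4, listed at 0 in 1 library, had the widest errors of the members.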
